A study of Mus musculus with 5 samples.

Results

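Nuclear factor I (NFI) transcription factors were followed across the ependymal and glial cells of adult mice. The family has 4 genes, Nfia, Nfib, Nfic and Nfix, which were taken by name from the 16347 genes of a single-cell RNA sequencing table of read counts. All 4 were in the table. The series, titled for the part that Sox9 and the NFI factors play in dopamine progenitors, deposited 1473 adult cells in 5 samples, 1 per group, each cell sorted into a plate well and sequenced with Smart-seq2, which reads whole cDNAs. A level is given in CPM, the reads of a gene summed over the cells of a class, divided by all reads of those cells and scaled to 1e+06 reads.

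The cells came from mice that were 3 months old. Foxj1 line animals carried FoxJ1CreERT2 and R26TdT, that is an inducible Cre recombinase driven by Foxj1, a gene of cells with motile cilia, and a red fluorescent reporter. This line gave 114 cells from the spinal cord, 245 from the third ventricle, 547 from the midbrain aqueduct and 240 from the lateral ventricle, from 10 animals of both sexes. Nkx2-2 line animals carried Nkx2-2Cre and R26TrapC, so that cells with a history of the transcription factor Nkx2-2 were labelled. It gave 327 midbrain cells from 7 animals, all female. The labels do not say which animal a cell came from, and they name no deletion of an NFI gene and no treatment in any group.

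NFI proteins bind DNA as dimers at a palindrome whose arms read TTGGC and GCCAA, and they act as activators or repressors depending on the promoter. In the embryonic spinal cord and brain, Nfia and Nfib are known for the onset of glial development, with Nfia acting downstream of Sox9. Nfix is known for the timing of neural stem cell differentiation and quiescence, and Nfic for tooth root formation.

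Nfia lies on chromosome 4 from 97772734 to 98118874 on the plus strand, and Nfib on chromosome 4 from 82290173 to 82705750 on the minus strand (GRCm38, GENCODE annotation). Nfic lies on chromosome 10 from 81396186 to 81455635 and Nfix on chromosome 8 from 84699876 to 84800344, both on the minus strand. RefSeq promoter windows (GRCm38.p6) matched 3 of the 4 genes. The 250 bases before a start are shown for Nfic and Nfix, the pair that was lowest in the Aqp4 cells of the Nkx2-2 line described further on. Capitals mark the letters TTGGC or GCCAA, searched on both strands.
Nfic, chr10:81427174-81427423, minus strand: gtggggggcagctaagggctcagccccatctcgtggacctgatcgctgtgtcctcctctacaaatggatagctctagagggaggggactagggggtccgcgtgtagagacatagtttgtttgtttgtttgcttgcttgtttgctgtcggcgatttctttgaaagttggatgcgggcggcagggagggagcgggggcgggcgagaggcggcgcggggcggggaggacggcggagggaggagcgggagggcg
Nfix, chr8:84773411-84773660, minus strand: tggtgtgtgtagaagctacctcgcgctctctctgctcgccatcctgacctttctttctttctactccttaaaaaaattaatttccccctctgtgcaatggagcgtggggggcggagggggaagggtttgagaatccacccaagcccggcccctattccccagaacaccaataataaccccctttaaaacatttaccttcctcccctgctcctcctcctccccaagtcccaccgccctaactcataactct
Nfix, chr8:84775829-84776078, minus strand: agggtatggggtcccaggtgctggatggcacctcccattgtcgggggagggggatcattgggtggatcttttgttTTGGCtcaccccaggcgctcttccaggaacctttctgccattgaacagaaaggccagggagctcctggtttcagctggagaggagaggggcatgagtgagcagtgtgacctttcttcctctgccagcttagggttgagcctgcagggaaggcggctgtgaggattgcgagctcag
The Nfic window ended just before an annotated GENCODE start, and the Nfix window with no capitals lay 14 bases from one. The Nfix window with capitals lay 1459 bases from the nearest annotated start. Of 4 Nfix windows in all, 2 held a match, and the matching window not shown lay 521 bases from the nearest annotated start. The Nfia window held 0, but it lay 190791 bases from the nearest annotated Nfia start, outside the gene span given above. TTGGC on either strand was in 41.5% of 32851 promoter windows of the same length, and the full palindrome with 5 bases between its arms was in 0.0365%. These matches describe letters and not binding.

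Midbrain cells of both lines were split in a fixed order of marker genes that are not NFI factors. Cells with Ccdc153, a cilium gene, at 1000 CPM or more formed the Ccdc153 class, then Sspo at 500 CPM the Sspo class, then Mog, a myelin gene, at 500 CPM the Mog class, and the rest were left as other. Sspo encodes SCO-spondin, which the subcommissural organ secretes into the cerebrospinal fluid. The Foxj1 line midbrain held 317 Ccdc153 cells (58.0%), 196 Sspo cells (35.8%), 0 Mog cells and 34 other cells (6.22%). The Nkx2-2 line held 19 Ccdc153 cells, 12 Sspo cells and 243 Mog cells (74.3%). Of its remaining cells, 28 had Pdgfra, a receptor of oligodendrocyte precursors, at 100 CPM or more, 17 others had Aqp4, an astrocyte and ependymal water channel, at 100 CPM or more, and 8 had neither and were too few to compare. Near the thresholds, 44 Foxj1 line midbrain cells had Ccdc153 between 500 and 1000 CPM and 27 between 1000 and 2000 CPM. For Sspo, 9 cells lay between 250 and 500 CPM and 0 between 500 and 1000 CPM.

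Depth and identity were checked before the NFI genes were read. Median reads per cell ran from 696997 in the Foxj1 line midbrain to 1.18e+06 in the Nkx2-2 line. The 5 ependymal markers Foxj1, Ccdc153, Tmem212, Rarres2 and Dynlrb2 summed to 10848 to 11464 CPM in the third ventricle, the midbrain Ccdc153 class and the lateral ventricle, to 5906 CPM in the spinal cord and to 1599 CPM in the midbrain Sspo class. The 5 oligodendrocyte markers summed to 102883 CPM in the Mog class, 4 precursor markers to 4176 CPM in the Pdgfra cells, and 5 astrocyte markers to 27209 CPM in the Nkx2-2 line Aqp4 cells. Classes are called oligodendrocyte-like, precursor-like and astrocyte-like on that ground. With 1 sample per group no test between groups was possible. A gene was called where 2 classes differed at least 2-fold and 1 of them reached 10 CPM, and the spread inside a sample was read from blocks, each a run of 96 cell numbers that held 10 or more cells of the class. In these summed values, fewer cells with a transcript and less RNA per cell cannot be told apart.

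Over 12 comparisons, 10 of 48 values of the 4 genes were past 2-fold (20.8%), beside 34.1% of all values of all genes tested in them. Across 11 classes Nfix ranged 112-fold and Nfic 14.3-fold, both with their lowest level in the Nkx2-2 line Aqp4 cells, while Nfib ranged 5.06-fold and Nfia 3.03-fold, both lowest in the Mog class in CPM. The low ends rest on few cells, since 1 cell gave 59.6% of the 47 Nfix reads and 1 gave 62.9% of the 89 Nfic reads of the Aqp4 cells. Under edgeR TMM scaling, which allows for genes that take a large share of a class's reads, the ranges were 81.5-fold for Nfix, 11.4-fold for Nfic, 4.45-fold for Nfib and 2.08-fold for Nfia. Many of the comparisons share a class, so that a high or low class returns in several of them.

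**Figure D1:**
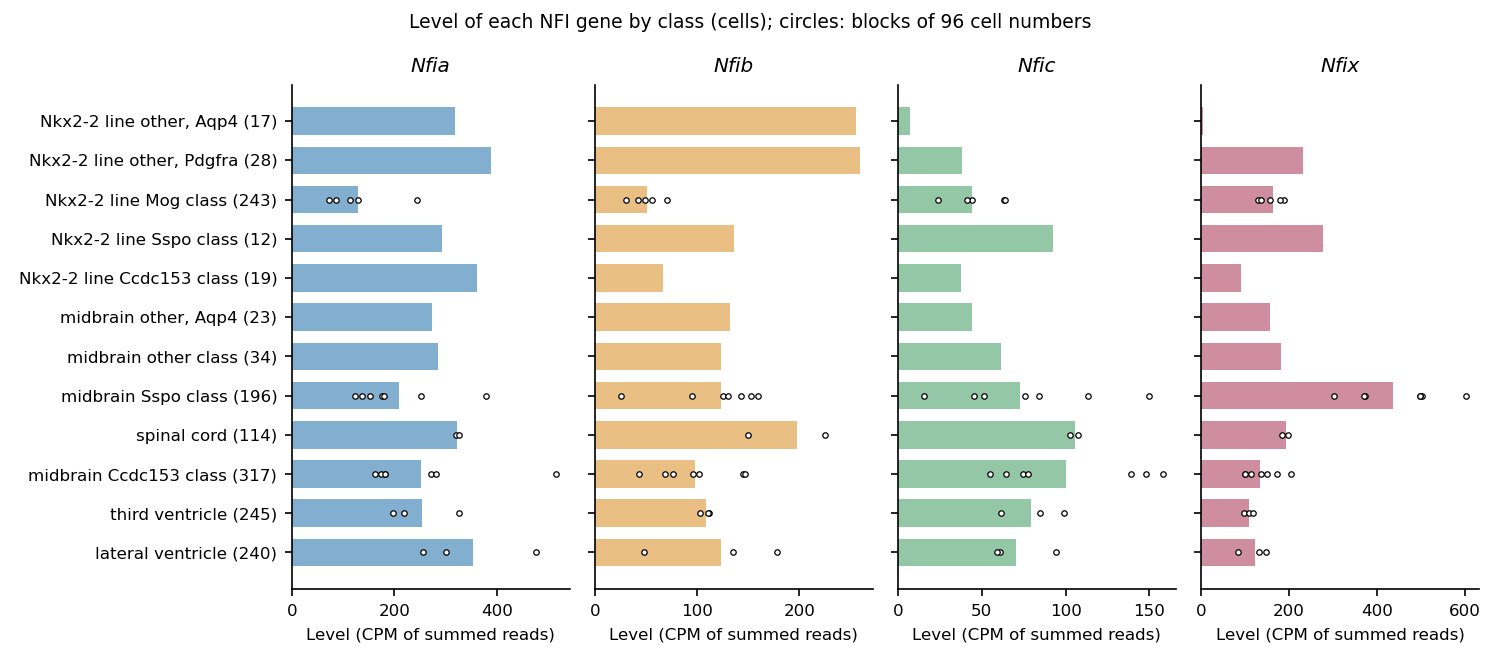
Level of each NFI gene in CPM of summed reads (bars, x axis) for each class, with the number of cells in brackets, and in blocks of 96 cell numbers (circles, where a block held at least 10 cells of the class). Nfix stood at 436 CPM in the midbrain Sspo class and at 3.90 CPM in the Nkx2-2 line Aqp4 cells, the ends of its range.

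Ependymal cells of the spinal cord, the third ventricle, the midbrain and the lateral ventricle expressed all 4 genes. Nfia stood at 323 CPM in the spinal cord (exact 95% counting interval 319 to 326, blocks 320.2 and 327), 254 CPM in the third ventricle (252 to 256, blocks 197 to 327), then 253 CPM in the midbrain Ccdc153 class (251 to 255, blocks 163 to 517) and 353 CPM in the lateral ventricle (351 to 356, blocks 255 to 477). The counting intervals were much narrower than the spread of blocks, which overlapped between all 4 places for Nfia. Nfib stood at 197 CPM in the spinal cord (blocks 150 and 225), 109 CPM in the third ventricle (103 to 112), 97.9 CPM in the midbrain Ccdc153 class (43.1 to 146) and 123 CPM in the lateral ventricle (48.0 to 178). Its spinal cord blocks lay above those of the third ventricle and the midbrain and overlapped those of the lateral ventricle. Nfic stood at 106 CPM in the spinal cord, 79.6 CPM in the third ventricle, 100.2 CPM in the midbrain Ccdc153 class and 70.3 CPM in the lateral ventricle. Nfix stood at 193 CPM in the spinal cord (blocks 183 and 199), 110 CPM in the third ventricle (98.5 to 119), 135 CPM in the midbrain Ccdc153 class (98.9 to 204) and 123 CPM in the lateral ventricle (83.2 to 149).

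Between these 4 places the members differed by at most log2 1.01. Of the 4 genes, 0 were past 2-fold in the spinal cord against the lateral ventricle, where 21.1% of all genes tested were, and 0 against the third ventricle, where 21.4% were. Against the midbrain Ccdc153 class 1 of 4 was past 2-fold, Nfib (log2 1.01), beside 19.7% of all genes. This value sits at the threshold: without the first spinal cord block the log2 was 0.61, and within the first sequencing project of the midbrain cells it was 0.85. The third ventricle against the lateral ventricle had 0 members past 2-fold (7.44% of all genes), the midbrain Ccdc153 class against the lateral ventricle 0 (5.07%), and the midbrain Ccdc153 class against the third ventricle 0 (8.19%). With 4 genes, a count of 0 or 1 cannot be told apart from these shares. Among all genes tested, Nfib stood at percentile 88.2 and Nfix at percentile 87.2 in the spinal cord against the third ventricle, and Nfic at percentile 88.8 and Nfia at percentile 9.54 in the midbrain Ccdc153 class against the lateral ventricle. In summed reads Nfib, Nfic and Nfix were each higher in the spinal cord than in the third and lateral ventricles, with log2 differences of 0.41 to 0.86. For Nfic the median over cells went the other way, with 3.61 CPM in the spinal cord, 59.5 CPM in the third and 36.8 CPM in the lateral ventricle. Nfic was at 100 CPM or more in 30.7%, 36.7% and 30.8% of these cells. Medians of Nfib and Nfix were higher in the spinal cord. For Nfic and Nfix the spinal cord blocks lay above those of both ventricles, and for Nfib they overlapped those of the lateral ventricle. The spinal cord sample had 2 blocks, and its summed ependymal markers were lower than in the other places. Its median of detected genes per cell was 3979.5, against 5341 in the third ventricle, 4866 in the midbrain Ccdc153 class and 5435.5 in the lateral ventricle. The part of the markers and of the detected genes in the difference was not tested.

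The title of the midbrain sample lists wells under a pair of code prefixes, called here the first and second sequencing project. No label says what the prefixes stand for, and cells were assigned to them by cell number. In the Ccdc153 class Nfia was at 178 CPM in the second project and 284 CPM in the first. The other members were also lower in the second, with 71.0 against 109 CPM for Nfib, 65.6 against 115 CPM for Nfic and 123 against 140 CPM for Nfix. Titles of the other 3 Foxj1 line samples carry the first prefix and that of the Nkx2-2 line the second, so that values across the lines also cross the prefixes.

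In the midbrain Sspo class Nfix was the gene that stood out. It had 436 CPM in the Sspo class (433 to 439, 7 blocks with lowest, median and highest 302, 498 and 602), against 135 CPM in the Ccdc153 class (7 blocks with 98.9, 136 and 204). The blocks did not overlap. The ratio was 3.24-fold (log2 1.69), and 1 of 4 members was past 2-fold, beside 33.3% of all genes tested in this comparison. The median log2 of all genes was 0.16, which leaves 1.53 for Nfix relative to it. Genes higher in the Sspo class were 55.1% of those called, and 44.1% under DESeq2 size factors. Nfix was read in all 196 Sspo cells, and 89.3% of them had at least 100 CPM (95% interval 84.1 to 93.2), against 48.6% of Ccdc153 cells (43.0 to 54.2).

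Within each of the 7 blocks, which hold cells of both classes, Nfix was higher in the Sspo class, with log2 ratios of 1.29 to 2.01. Nfia went the other way in 7 of 7 blocks, by small amounts (log2 -0.62 to -0.00), with 210 CPM in the Sspo class and 253 CPM in the Ccdc153 class overall. Nfib was higher in the Sspo class in 5 of 7 blocks and Nfic in 2 of 7. Nfia was at its highest in the second block in both classes, with 379 CPM among Sspo cells and 517 CPM among Ccdc153 cells, and Nfib at its lowest in the sixth block in both, with 25.8 and 43.1 CPM. Nfix was at its lowest in the fifth block in both. The lowest Nfia, the highest Nfib, the highest Nfix and both extremes of Nfic fell in different blocks in the Sspo and Ccdc153 classes. Nfix in the Sspo class was 438 CPM in the second project and 436 CPM in the first.

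**Figure D2:**
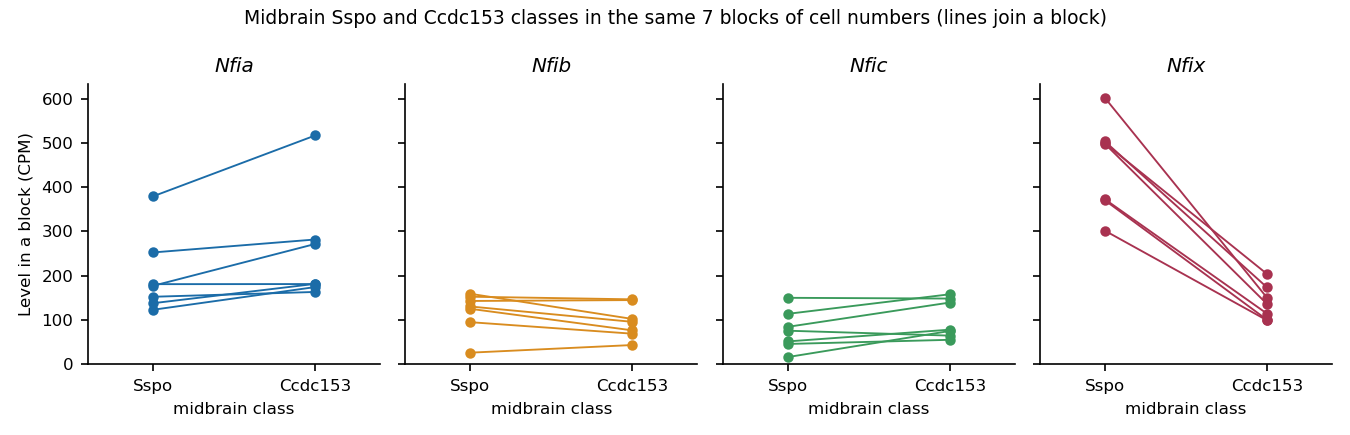
Level in CPM (y axis) of each NFI gene in the Sspo class and the Ccdc153 class of the Foxj1 line midbrain, with a line joining the classes of the same block of 96 cell numbers. Nfix was higher in the Sspo class in 7 of 7 blocks, while Nfia was lower there in 7 of 7.

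A small set of midbrain cells carried both markers. Of the 317 Ccdc153 cells, 16 also had Sspo at 500 CPM or more, and Nfix stood at 440 CPM in these 16, against 122 CPM in the other 301. Nfia stood at 319 CPM in the 16 and 250.1 CPM in the 301. Without those cells the log2 of Nfix in the Sspo class against the Ccdc153 class was 1.84.

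The Nkx2-2 line offered the same contrast with few cells, and it was added after the data had been seen. Nfix had 276 CPM in its 12 Sspo cells (268 to 285), against 89.7 CPM in its 19 Ccdc153 cells (85.7 to 93.9), a log2 ratio of 1.62. The median over cells was 296 CPM in the Sspo cells and 45.5 CPM in the Ccdc153 cells. In this comparison 3 of 4 members were past 2-fold, beside 58% of all genes: Nfix, Nfic (2.46-fold, with 92.4 CPM in Sspo and 37.5 CPM in Ccdc153 cells) and Nfib (log2 1.02, with 136 and 66.8 CPM). Nfic and Nfib rest on few cells: 1 cell gave 58.1% of the Nfic reads and 1 gave 41.6% of the Nfib reads of the Ccdc153 cells, while 1 Sspo cell gave 41.5% of the Nfib reads of its class. With class thresholds halved the log2 of Nfib turned to -1.20. It was 0.38 without the second block and 2.01 without the third, and that of Nfic was 0.72 without the fifth block and 2.52 without the third. Without a Ccdc153 cell that also had Mog above 500 CPM, Nfic was at 16.8 CPM there. Oligodendrocyte markers summed to 4128 CPM in the 12 Sspo cells and 5549 CPM in the 19 Ccdc153 cells. Their part in these levels was not tested.

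The ependymal cells of the 2 lines were also set side by side after the data had been seen. Nkx2-2 line Ccdc153 cells against the midbrain Ccdc153 class had 1 of 4 members past 2-fold, beside 34.6% of all genes. That gene was Nfic, with 37.5 CPM in the Nkx2-2 line and 100.2 CPM in the Foxj1 line (log2 -1.42). Against the second-project cells of the Foxj1 line the log2 of Nfic was -0.81 and that of Nfia 1.03, so that Nfia was past 2-fold there and Nfic was not. Without the Ccdc153 cell with Mog the log2 of Nfic was -2.58. Nfia had 363 CPM in the Nkx2-2 line and 253 CPM in the Foxj1 line, Nfib 66.8 and 97.9 CPM, and Nfix 89.7 and 135 CPM.

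In the 34 midbrain other cells astrocyte markers summed to 5670 CPM, oligodendrocyte to 1203, ependymal to 1150 and microglial to 574 CPM. These cells had 0 of 4 members past 2-fold against the Ccdc153 class, beside 46.1% of all genes. Nfia stood at 286 CPM in the other cells and 253 CPM in the Ccdc153 class, Nfib at 124 against 97.9 CPM, Nfic at 61.6 against 100.2 CPM, and Nfix at 183 against 135 CPM. With second-project cells alone Nfib and Nfix were past 2-fold, Nfib lower (log2 -1.97, against 0.34 over all cells) and Nfix higher.

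Oligodendrocyte-like cells had the lowest Nfia and Nfib in CPM and under DESeq2 size factors. Under TMM scaling the lowest Nfia was in the midbrain Sspo class (188, against 192 in the Mog class) and the lowest Nfib in the Nkx2-2 line Ccdc153 cells (70.5, against 76.7 in the Mog class). The Mog class of the Nkx2-2 line had 128 CPM of Nfia (127 to 129, 5 blocks with 72.5, 114 and 245), against 253 CPM in the midbrain Ccdc153 class (7 blocks with 163, 181 and 517). Nfib had 51.2 CPM in the Mog class (30.5 to 70.9 over blocks) and 97.9 CPM in the Ccdc153 class (43.1 to 146). Nfic had 44.0 CPM (23.6 to 63.7) and 100.2 CPM (54.9 to 158). Nfix had 163 CPM (128 to 188) and 135 CPM (98.9 to 204). The blocks of the 2 classes overlapped for each of the 4 genes.

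In this comparison 1 of 4 members was past 2-fold, Nfic (log2 -1.19), beside 56.7% of all genes. The median of all genes was -0.52. Genes higher in the Mog class were 30.8% of those called, and 49.9% under edgeR TMM scaling, 42.0% under DESeq2 size factors and 47.1% with the authors' normalized values. Relative to that median, Nfia stood at -0.46, Nfib at -0.41, Nfic at -0.66 and Nfix at 0.79. TMM scaling moved the median by 0.69, to 0.17, and left 0 members past 2-fold, with Nfix at 0.88. Against second-project midbrain cells alone, whose code prefix the Nkx2-2 line title shares, 0 members were past 2-fold.

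Within the Nkx2-2 line, the Mog class against the 19 Ccdc153 cells had 1 of 4 members past 2-fold, beside 64.6% of all genes. Nfia had 128 CPM in the Mog class and 363 CPM in the Ccdc153 cells (log2 -1.50, or -1.04 relative to the median of all genes). With the authors' normalized values it was -0.98. Genes higher in the Mog class were 38.7% of those called, 52.5% under TMM scaling and 51.8% with the normalized values. Nfix had 163 CPM in the Mog class and 89.7 CPM in the Ccdc153 cells (log2 0.86), Nfic 44.0 and 37.5 CPM, and Nfib 51.2 and 66.8 CPM, the last with its sign turned under TMM scaling (log2 0.12).

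Precursor-like cells had the highest Nfia and Nfib of the 11 classes in CPM, but not under TMM scaling or DESeq2 size factors, where the Nkx2-2 line Aqp4 cells were highest for both. The 28 Pdgfra cells had 389 CPM of Nfia (381 to 396), against 128 CPM in the Mog class, and 259 CPM of Nfib (253 to 265), against 51.2 CPM. Median levels over cells were 311 CPM for Nfia in the Pdgfra cells and 82.1 CPM in the Mog class, and 211 and 3.46 CPM for Nfib. Of 4 members 2 were past 2-fold, Nfib (log2 2.34) and Nfia (log2 1.60), beside 59.1% of all genes. The median of all genes was 0.86 here, so relative to it Nfib stood at 1.48, Nfia at 0.74, Nfix at -0.34 and Nfic at -1.06.

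Scaling moved the median of all genes furthest in this comparison, by -1.17 under TMM. Of the genes past 2-fold, 78.1% were higher in the Pdgfra cells, 41.8% under TMM scaling, 56.6% under DESeq2 size factors and 45.6% with the normalized values. Under TMM Nfib stayed past 2-fold (log2 1.28), Nfia did not (0.54), and Nfix, with 233 CPM in the Pdgfra cells and 163 CPM in the Mog class, changed sign (log2 0.52 in CPM and -0.54 under TMM). Nfic was past 2-fold lower under TMM (log2 -1.26, against -0.20 in CPM), so that the count of 2 held with Nfic in place of Nfia. Nfic had 38.2 CPM in the Pdgfra cells, of which 1 cell gave 41.9% of the reads, and 44.0 CPM in the Mog class.

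Astrocyte-like cells of the Nkx2-2 line had almost no Nfix and little Nfic beside high Nfia and Nfib. Over 17 cells and 12061920 reads, Nfix had 47 reads, 3.90 CPM (2.86 to 5.18), against 163 CPM in the Mog class, which is 41.7-fold lower (log2 -5.38). Nfic had 7.38 CPM (5.93 to 9.08), against 44.0 CPM in the Mog class (log2 -2.58). Nfib had 255 CPM, against 51.2 CPM (log2 2.32), and Nfia 319 CPM, against 128 CPM (log2 1.31). All 4 members were past 2-fold, beside 67.9% of all genes, the highest share of the 15 comparisons. Among all genes tested Nfix stood at percentile 16.3, Nfic at 22.9, Nfia at 72.2 and Nfib at 82.1. Thus 16.3% of the genes tested had a still lower log2 than Nfix.

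In single cells Nfix was at 0 or low throughout. Of the 17 cells, 10 had 0 Nfix reads and the highest had 45.3 CPM, while Nfia reached 984 CPM and Nfib 1037 CPM. None of the 17 cells had Nfix at 100 CPM (exact 95% upper bound 19.5%), against 56.0% of 243 Mog cells (49.5 to 62.3). The cells came from 5 blocks, with 1 to 6 in each. Without the third block of that sample the log2 of Nfix was -8.46, on fewer than its 47 reads, and that of Nfia 0.79. Without the fifth block the log2 of Nfic was -3.57. Their median of 2768 detected genes per cell was below the 4245 of the Mog class, and Mog itself was at 5.2 CPM in them.

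Astrocyte-like cells of the Foxj1 line midbrain had Nfix in part of the cells. This set of 23 cells, with Aqp4 at 100 CPM or more and Ccdc153 below 100 CPM, was formed after the data had been seen. Astrocyte markers, Aqp4 among them, summed to 7448 CPM in it, against 27209 CPM in the Nkx2-2 line cells. Oligodendrocyte markers summed to 995 and 520 CPM, ependymal to 282 and 78.1 CPM, and microglial to 36.7 and 0.0829 CPM. A mix of cell types in the set was not tested. Nfix had 3.90 CPM in the Nkx2-2 line cells and 156 CPM in the 23 Foxj1 line cells (150 to 163), a log2 ratio of -5.33, and Nfic 7.38 and 44.1 CPM (log2 -2.58). Nfia had 319 and 275 CPM and Nfib 255 and 132 CPM. Of 4 members 2 were past 2-fold, beside 66.1% of all genes, with a median of -0.59. Of the 6531 genes called, 4242 were lower in the Nkx2-2 line cells, and under DESeq2 size factors 46.2% of those called were higher. Among the 23 cells 9 had 0 Nfix reads, 9 had 100 CPM or more (39.1%, 19.7 to 61.5), and the highest had 1200 CPM, which gave 35.1% of the reads. Nfix was at 287 CPM in the 6 cells of the second project, whose code prefix the Nkx2-2 line title shares, and at 106 CPM in the 17 cells of the first.

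The 2 sets differed in more than NFI genes. Gfap, an astrocyte filament protein, had 201 CPM in the Nkx2-2 line cells and 4588 CPM in the Foxj1 line cells, and Aldoc, an astrocyte glycolytic enzyme, 11851 and 1423 CPM. Median genes per cell were 2768 and 3792. The Cre line, the reporter, the mix of sexes and the dissection differ between these sets. For 17 of the 23 Foxj1 line cells the sequencing project, as taken from cell numbers, differs as well. These differences cannot be told apart.

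**Figure D3:**
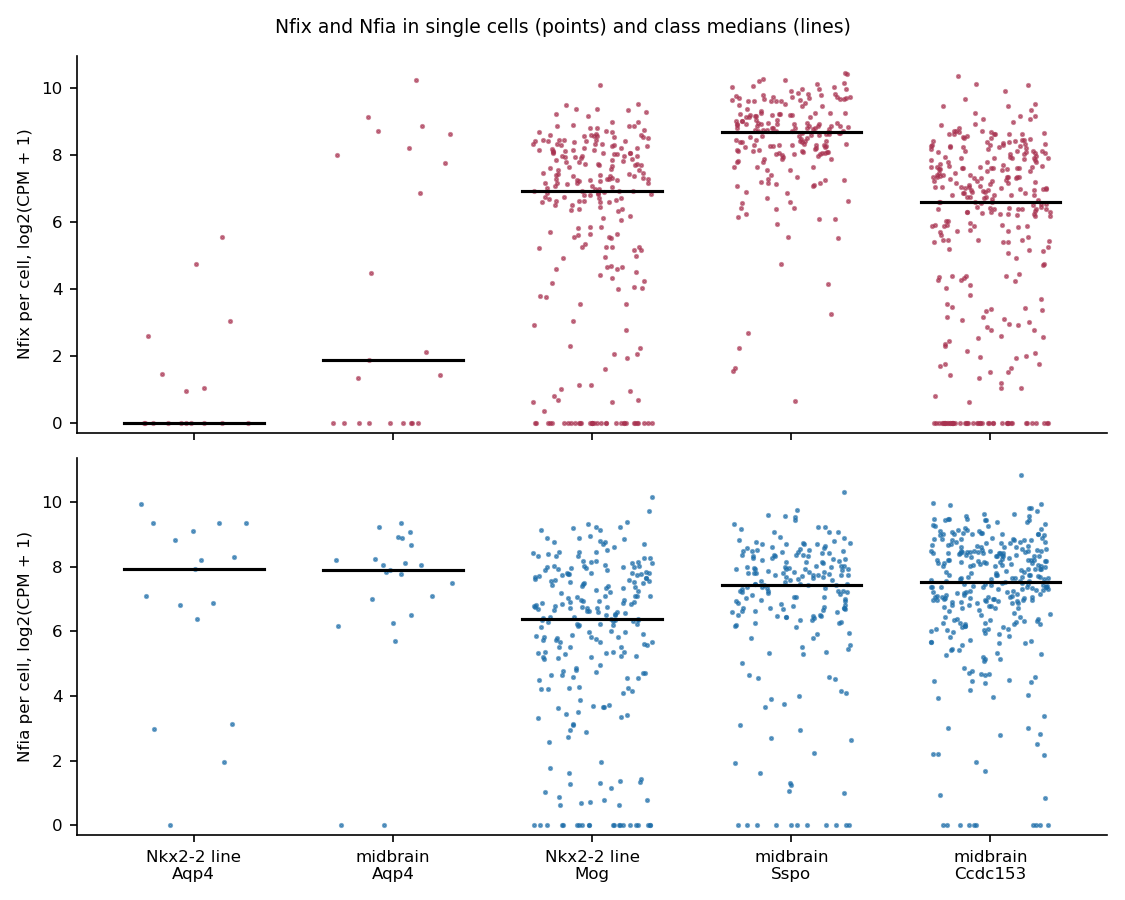
Nfix and Nfia in single cells on a log2(CPM + 1) scale (y axis), with a point per cell and a line at the median of each class. All 17 Aqp4 cells of the Nkx2-2 line lay below 50 CPM of Nfix, while 9 of 23 Aqp4 cells of the Foxj1 line midbrain were at 100 CPM or more.

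**Figure D4:**
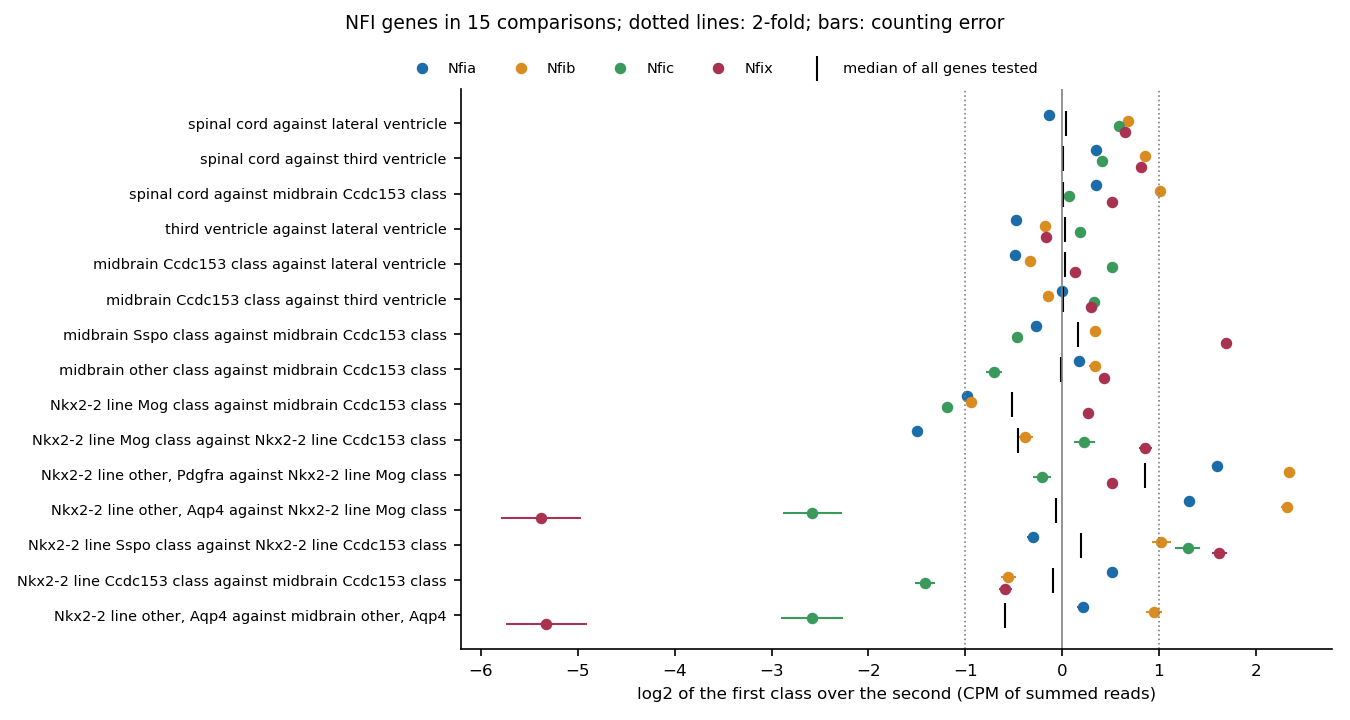
Log2 of the first class over the second (x axis) for each NFI gene in each comparison, with counting error as bars, the median of all genes tested as a black tick and 2-fold as dotted lines. The values furthest from 0 were those of Nfix in the Nkx2-2 line Aqp4 cells, at -5.38 and -5.33.

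The order of CPM levels across the 11 classes differed between members. Nfia ran from the Pdgfra cells at 389 CPM through the Nkx2-2 line Ccdc153 cells, the lateral ventricle, the spinal cord, the Aqp4 and Sspo cells of the Nkx2-2 line, the midbrain other cells, the third ventricle, and the Ccdc153 and Sspo classes of the midbrain to the Mog class at 128 CPM. Nfib began with the Pdgfra cells, the Nkx2-2 line Aqp4 cells and the spinal cord, and ended with the Nkx2-2 line Ccdc153 cells and the Mog class. Nfic began with the spinal cord and the midbrain Ccdc153 class and ended with the Pdgfra cells, Nkx2-2 line Ccdc153 cells and Aqp4 cells. Nfix began with both Sspo classes and ended with the third ventricle, the Nkx2-2 line Ccdc153 cells and the Aqp4 cells. Among the 6 classes with blocks, neighbours in each order overlapped, with 1 exception, the midbrain Sspo class at the top of Nfix.

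Levels of different genes were compared per kilobase of exon. With the union of annotated exons (10891 bases for Nfia, 14957 for Nfib, 6630 for Nfic and 7351 for Nfix), Nfia came first in 9 of 12 classes, the Foxj1 line Aqp4 cells included. Nfix came first in the other 3, the Sspo classes of both lines and the Mog class. In the lateral ventricle Nfia was at 32.4 CPM per kilobase, Nfix at 16.7, Nfic at 10.6 and Nfib at 8.22. In the midbrain Sspo class Nfix was at 59.3 CPM per kilobase, Nfia at 19.3, Nfic at 11.0 and Nfib at 8.27. In the Nkx2-2 line Aqp4 cells Nfia was at 29.2, Nfib at 17.1, Nfic at 1.11 and Nfix at 0.53 CPM per kilobase. With the longest transcript as the length Nfia led in 6 of 12 classes, and with coding length in 10.

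Single cells were mostly led by 1 member. The leading gene was taken as the one with the most reads per kilobase in a cell, and its median share of the 4 genes together was 61.8% in the midbrain Sspo class, 57.5% in the midbrain Ccdc153 class, 68.4% in the Mog class and 56.8% in the lateral ventricle. Nfix led 82.1% of midbrain Sspo cells (95% interval 76.1 to 87.2), against 31.2% of midbrain Ccdc153 cells (26.2 to 36.6). Nfia led 13.3% of Sspo cells and 39.1% of Ccdc153 cells. In the Nkx2-2 line Nfix led 10 of 12 Sspo cells, against 6 of 19 Ccdc153 cells. Every cell with an NFI read has a leading gene by this rule, so its share also reflects zeros of the other members. In summed reads of the midbrain Ccdc153 class, Nfia came first with a share of 36.7%.

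Nfia led 35.4% of spinal cord cells (26.6 to 45.0), 51.4% of cells of the third ventricle (45.0 to 57.8) and 63.8% of lateral ventricle cells (57.3 to 69.8). Nfib led 17 of 113 spinal cord cells, 11 of 245 cells of the third ventricle and 11 of 240 cells of the lateral ventricle. In the Mog class Nfix led 51.7% of cells and Nfia 30.2%. In the Pdgfra cells Nfix led 13 of 28 and Nfia 10, but with coding length Nfia led 14 and Nfix 8. In the spinal cord the lead turned with the longest transcript, where Nfix led 41 cells and Nfia 36. Nfia and Nfib led all 17 Aqp4 cells of the Nkx2-2 line, 10 and 7 of them, with 0 led by Nfic or Nfix. Cells are not replicates, and these intervals cover the counting of cells only.

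**Figure D5:**
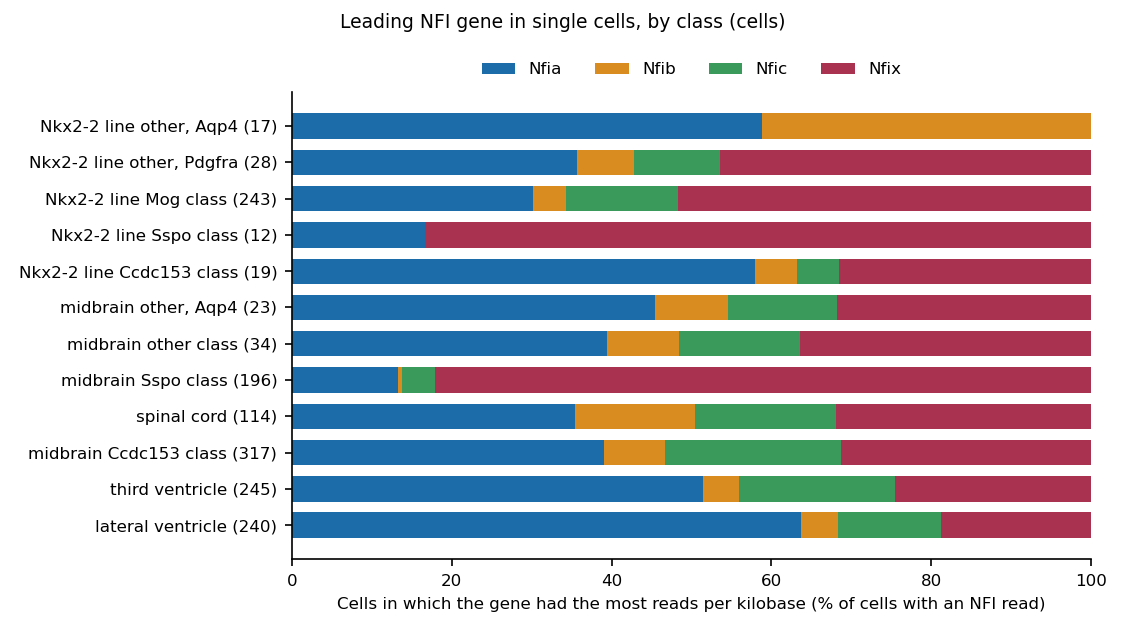
Percent of cells (x axis) in which each NFI gene had the most reads per kilobase of exon, for each class with its number of cells. Nfix took 82.1% of midbrain Sspo cells, and Nfia 63.8% of lateral ventricle cells.

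At 100000 reads per cell, a minority of cells had reads of all 4 members at once. After each cell was thinned to 100000 reads, all 4 were read in 38.8% of midbrain Sspo cells, 34.1% of midbrain Ccdc153 cells, 32.5% of spinal cord cells and 41.2% of lateral ventricle cells, in 14.8% of the Mog class and in none of the 17 Nkx2-2 line Aqp4 cells. Nfia was the most widely read in ependymal cells, in 91.2% of spinal cord, 96.3% of the third ventricle, 93.7% of midbrain Ccdc153 and 97.9% of lateral ventricle cells. Nfic was read in 49.1%, 63.7%, 59.3% and 58.3% of them. Without thinning Nfia was read in 94.7%, 98.4%, 96.8% and 99.2% and Nfic in 57.0%, 72.2%, 65.9% and 68.8%. Smart-seq2 reads of few starting molecules leave many such zeros, so that a cell without a read is not a cell without the transcript.

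Within a class the members were weakly correlated. Over 36 pairs of members in the 6 classes of at least 100 cells, Spearman correlations of CPM ran from -0.20 to 0.27, and 2 pairs were beyond 0.2 in size. They were Nfia with Nfib in the midbrain Sspo class (0.27, 196 cells) and Nfia with Nfix in the Mog class (-0.20, 243 cells). Cells of a sample share plates and animals, and such weak values are given as a description only.

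Genes around the NFI factors were read from 2 lists. The first holds 18 partner and upstream factors of glial development, and the second 20 genes tied to NFI factors in developing glia. In the midbrain Sspo class against the Ccdc153 class, 4 of 13 tested factors were higher and 1 lower, with a median log2 of -0.00, against 0.16 for all genes, 33.3% of which were past 2-fold. Atf3, a stress-responsive factor, had 4506 CPM in Sspo cells and 300 CPM in Ccdc153 cells, Hes1, a Notch target, 744 and 85.0 CPM, and Notch2 277 and 45.6 CPM. Sox9, which acts upstream of Nfia, had 1462 and 1247 CPM. Of the second list 4 of 16 were higher and 6 lower, with a median of -0.61. Glul, the glutamine synthetase, had 162 and 39.3 CPM, Aqp4 10.6 and 428 CPM, and Hey1, another Notch target, 0.33 and 145 CPM.

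In the Mog class against the midbrain Ccdc153 class, 6 of 17 factors were higher and 9 lower (median -1.69, against -0.52 for all genes, 56.7% of which were past 2-fold). Sox9 had 2.52 CPM in Mog cells and 1247 CPM in Ccdc153 cells, and Hes1 1.15 and 85.0 CPM. Sox8, a Sox9 relative of the oligodendrocyte lineage, had 157 and 4.66 CPM, and Olig1, an oligodendrocyte lineage factor, 1621 and 0.195 CPM. Of the second list 4 of 17 were higher and 10 lower (median -2.72). Glul had 2670 CPM in Mog cells and 39.3 CPM in Ccdc153 cells. Against the Nkx2-2 line Ccdc153 cells the Mog class had 6 of 16 factors higher and 9 lower (median -1.66), and 4 of 19 of the second list higher and 11 lower (median -2.44), beside 64.6% of all genes past 2-fold.

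In the Pdgfra cells against the Mog class 13 of 16 factors were higher and 0 lower (median 1.70, against 0.86 for all genes), where 59.1% of all genes were past 2-fold and 78.1% of those higher. Under TMM scaling 5 of 16 were higher and 2 lower, and under DESeq2 size factors 8 of 17 were higher and 0 lower. Among the higher genes in CPM were Notch1 with 163 CPM in Pdgfra cells and 14.4 CPM in Mog cells and Sox2, a stem cell factor, with 31.2 and 2.42 CPM. Of the second list 7 of 13 were higher and 5 lower (median 1.74), and 5 of 14 higher and 7 lower under TMM scaling, with Fabp7, a fatty acid binding protein of glial precursors, at 673 and 6.45 CPM. In the Aqp4 cells of the Nkx2-2 line against the Mog class 10 of 17 factors were higher and 4 lower (median 1.98, against -0.06 for all genes, 67.9% of which were past 2-fold). Sox9 had 1028 CPM in Aqp4 cells and 2.52 CPM in Mog cells. Of the second list, which contains Aqp4 itself, 10 of 17 were higher and 4 lower (median 3.67). Pla2g7, an astrocyte phospholipase, had 5574 and 6.10 CPM, and Slc1a2, a glutamate transporter, 2480 and 9.04 CPM.

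Ependymal places were compared by the same lists. In the spinal cord against the lateral ventricle 2 of 13 factors were higher and 0 lower (median 0.48, against 0.04 for all genes), and of the second list 0 of 15 were higher and 5 lower (median -0.41), beside 21.1% of all genes past 2-fold. Sox2 had 102 CPM in the spinal cord and 37.9 CPM in the lateral ventricle, Pla2g7 3.99 and 402 CPM, and Mmd2, an NFIA and SOX9 target in mouse spinal cord development, 14.0 and 191 CPM. In the third ventricle against the lateral ventricle 1 of 14 factors was higher and 1 lower (median 0.10, against 0.03 for all genes), and of the second list 1 of 16 was higher and 0 lower (median 0.47), beside 7.44% of all genes. Slc1a3, a glutamate transporter, was that gene, with 621 CPM in the third ventricle against 288 CPM in the lateral ventricle.

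The genes with the most similar pattern across the 11 classes were found by Pearson correlation of log2(CPM + 1). For Nfix they were Rpl19.Ps11 (0.99), Pcif1 (0.98) and Yaf2 (0.98), for Nfic Ppp1r16a (0.98), Mbd4 (0.96) and Dcaf5 (0.96), for Nfib Hivep2 (0.94), Copg2 (0.91) and Pip4p2 (0.91), and for Nfia Plin2 (0.94), Nop58 (0.90) and Cbarp (0.89). In the Nkx2-2 line Aqp4 cells, where Nfix and Nfic were lowest, Yaf2 had 0 reads, Pcif1 2.5 CPM and Ppp1r16a 0.2 CPM. Over the 317 midbrain Ccdc153 cells the highest Spearman correlation with any member was 0.28, between Nfic and Kmt2d. These points share libraries and depth, and the best of 11851 to 13422 candidate genes over 11 classes were picked for being high.

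The strand setting of the counting is not given in the sources used here, and Smart-seq2 does not mark strand. Antisense genes overlapped 137 (G430095P16Rik) and 4 (Lyl1) exon bases of Nfix, 72 of Nfic (Gm16104) and 4 of Nfia (E130114P18Rik), at most 1.92% of a gene's exon length. Reads from a gene and its antisense partner cannot be told apart there. The longest exact run shared by transcripts of 2 members was 32 bases, between Nfic and Nfix.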

How the data were processed

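Single cells of 5 samples were read from the whole-number counts per gene and cell that the authors deposited, not normalized, for 1473 cells and 16347 genes. The second table that the authors deposited held log2 values. With a size factor for each cell (0.0875 to 6.00), the counts gave back 100% of its 24079131 values within 0.01 as log2(scaled count + 1), and it served as an alternative only. STAR 2.3.1o, Seurat 3 and mm10 are named in the submitters' processing notes; the counting tool, its strand setting and the annotation are not given in the sources used here.

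Column names placed each cell in a sample, and 0 columns were unused. Names for the Nkx2-2 line, the midbrain and the spinal cord match titles, while Forebrain as the lateral ventricle and Tanycytes as the third ventricle rests on anatomy. Cell numbers up to 480 in the midbrain were taken as the first sequencing project, from the order of wells in the title. The 4 genes, the classes and the lists were chosen with earlier results of these data known. Named genes were the 4 members, the 4 listed genes furthest past 2-fold each way in a comparison, from which a few are given, and the 3 genes most like each member. Sox9 and Aldoc were also named where the rule does not reach, after their values were seen.

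Reads were summed per class and scaled to CPM, with exact Poisson 95% intervals; shares of cells have exact Clopper-Pearson intervals. Without molecular identifiers these cover counting error only. No cell was removed and no doublets were called, as cells were sorted singly into wells. For genes of the 2 lists levels are given and no fold. For the NFI genes folds are given also where reads were few, as with the 47 Nfix reads of the Nkx2-2 line Aqp4 cells. Gene models came from GENCODE vM21 on GRCm38. Alternatives were edgeR 4.0.16 TMM and DESeq2 1.42.0 size factors as scalings only, the mean of deposited normalized values, the mean of per-cell CPM, class thresholds halved and doubled, a gene filter of 1 CPM, each sequencing project, leaving out the 2% of cells with most genes, leaving out each block, and other gene lengths. The calls were checked on simulated class sums with counting error only, so that the check does not cover the spread between cells, blocks or animals. Tools were numpy 2.4.6, pandas 2.3.3, scipy 1.17.1, matplotlib 3.10.9 and R 4.3.3.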

Additional observations from a re-analysis of the deposited data

Results flagged for a closer look

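The contrast between the Sspo class and the Ccdc153 class was available in both midbrain samples, and Nfic went opposite ways in them. Its log2 ratio was -0.46 in the Foxj1 line, with 72.8 CPM in Sspo cells and 100.2 CPM in Ccdc153 cells, while in the Nkx2-2 line it was 2.46-fold higher in Sspo cells, with 92.4 and 37.5 CPM. The difference between the lines was -1.7601 on the log2 scale. It was not tested, since each line is 1 sample, and the Nkx2-2 line has 12 and 19 cells in these classes, 1 of which gave 58.1% of the Nfic reads of the Ccdc153 cells. Nfix had the same sign in both lines (1.69 and 1.62), as had Nfia (-0.27 and -0.30). Nfib was at 0.34 and 1.02, and in the Nkx2-2 line it turned to -1.20 with class thresholds halved.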

How the results depend on the processing

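With 1 sample per group every value describes these samples, and the 12, 17, 19, 23 and 28 cells of the small classes limit them most. The number of members past 2-fold over the 12 comparisons was 10, became 6 with the mean of the deposited normalized values, and ran from 9 to 12 when blocks of cells were left out. The midbrain Sspo class against the Ccdc153 class kept 1 member, Nfix, under all 12 alternatives, with a log2 of 1.43 to 1.84 (1.66 to 1.76 without single blocks). Of these alternatives, the gene filter and the leaving out of Mog cells from the Nkx2-2 line could not alter this count. Nfix in the Nkx2-2 line Aqp4 cells against the Mog class ran from -5.67 to -4.37. Without single blocks it ran from -8.46 to -5.00, on 47 Nfix reads or fewer in the Aqp4 cells.

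The count for the spinal cord against the midbrain Ccdc153 class was 1, and 0 under DESeq2 size factors, in the first project and without the 2% of cells with most genes, with 0 to 1 without single blocks. Without single blocks, the spinal cord had 0 to 1 against the lateral ventricle and 0 to 1 against the third ventricle. The midbrain other class had 2 with second-project cells, and 0 to 1 without single blocks. The Mog class against the midbrain Ccdc153 class had 1, and 0 under TMM, DESeq2 and deposited scaling and with second-project cells, 3 with first-project cells, and 1 to 3 without single blocks. Against the Nkx2-2 line Ccdc153 cells it had 1, and 0 with deposited values, 2 under DESeq2, with thresholds halved or doubled, without the 2% of cells with most genes and without Mog cells, and 1 to 2 without single blocks. The Pdgfra cells had 2, and 1 under DESeq2 and with deposited values (2 to 3 without single blocks). The Nkx2-2 line Sspo cells had 3, and 1 with deposited values (2 to 3 without single blocks), the Nkx2-2 line Ccdc153 cells against the midbrain 1 to 2 without single blocks, and the Aqp4 cells 3 to 4 against the Mog class and 2 to 3 against the Foxj1 line cells. Nfib in the Nkx2-2 line Sspo against Ccdc153 cells reversed to -1.20 (1.02 as reported) with thresholds halved. The causes were not tested. With a gene filter of 1 CPM in place of 10 CPM, the genes past 2-fold went up by more than 1.5 times in 10 comparisons, as more genes are tested: 4500 in place of 2177, 4527 of 2221 and 4396 of 2032 for the spinal cord against lateral ventricle, against the third ventricle and against midbrain; 2355 of 749 for the third against the lateral ventricle; 2060 of 506 and 2509 of 832 for the midbrain Ccdc153 class against them; and 5897 of 3590, 7835 of 5029, 9116 of 5944 and 6705 of 3585 for the midbrain Sspo, midbrain other, Mog and Nkx2-2 line Ccdc153 classes against it. With second-project midbrain cells they numbered 1184 in place of 506 against the lateral ventricle and 1557 in place of 832 against the third ventricle.

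With coding length Nfia led 71.7% of lateral ventricle, 58.4% of the third ventricle and 49.8% of midbrain Ccdc153 cells, and Nfix 71.4% of midbrain Sspo cells. With the longest transcript Nfia led 42.9% of the third ventricle cells. The 3 added comparisons, the scaled list counts and class orders, and the alternatives without Sspo or Mog cells and by longest transcript, were chosen after seeing the data. No paired analysis of replicate samples was possible because each group has 1 sample. The Sspo and Ccdc153 classes of the Foxj1 line midbrain were set side by side within blocks of 1 sample, as a description only.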

Other observations

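The 8 Nkx2-2 line cells in no compared class had 519 CPM of Nfia, 109 CPM of Nfib, 27.1 CPM of Nfic and 63.3 CPM of Nfix. A single cell gave all of the Nfic reads.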
